A study of Mus musculus with 6 samples.

Results

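The genes described here make the enzymes of the lysosome, the proteins that tag those enzymes for delivery, and proteins of its membrane. They are 37 genes: 5 sulfatases, 13 glycosidases, 1 acetyltransferase, 5 genes for lipid and thioester hydrolases and their activator, 7 proteases, 3 mannose 6-phosphate tagging genes and 3 membrane protein genes. They were chosen by function, from a list drawn up when splicing and expression results of these same libraries were already known, so what follows describes them and is not independent evidence that lysosomal genes respond as a class. Of the 37 genes, 35 had at least 1 intron in a deposited table, among 12134 genes in all. Their introns numbered 285 of the 85015 listed in any library, 220 of the 68322 listed in all 4 libraries and 202 of the 63309 tested. Arsb and Hyal2 had no listed intron, and were seen only in the long reads. Naglu and Lipa had introns listed, but none in all 4 libraries.

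The series compared E14 mouse embryonic stem cells (129/Ola background), a pluripotent line grown here on gelatin in serum with leukemia inhibitory factor, after transfection with a control siRNA or an siRNA against Son, both carried by Lipofectamine. RNA was taken 24 hours after transfection. Total RNA depleted of ribosomal RNA was sequenced for 2 control and 2 Son siRNA samples, and Nanopore cDNA reads were obtained for 1 control and 1 Son siRNA sample. The labels call the total RNA samples replicates but do not say whether they were separate cultures, so p-values measure the spread between these samples only. The siRNA sequences are not given in the sources used here. Son encodes a large protein of nuclear speckles, the bodies in the nucleus where splicing factors gather, and it is known as a cofactor in the removal of introns with weak splice sites.

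A lysosomal enzyme is made at the endoplasmic reticulum and, in most cases, is given a mannose 6-phosphate mark in the Golgi, which mannose 6-phosphate receptors recognise and carry to endosomes. The mark is built by N-acetylglucosamine-1-phosphotransferase, whose catalytic alpha and beta subunits come from Gnptab and whose gamma subunit comes from Gnptg, and it is then uncovered by the enzyme that Nagpa encodes. Sulfatases, glycosidases, lipases and cathepsins then degrade their substrates in the acidic lumen, and loss of single enzymes causes storage diseases in people. The transcription factor TFEB and its relatives are known to drive many of these genes through a promoter element that contains the letters CACGTG.

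Each table of total RNA gave, per intron, the split reads (spliced across a junction) and the unsplit reads (running from exon into intron) at the 5′ and 3′ junctions. Splicing efficiency is the split share of all reads at both junctions, so a value of 1 means that no unsplit read was seen. The libraries held between 10556187 and 16012286 split reads at 5′ junctions, and a tested intron of the 37 genes had a median of 263 junction reads per library. The targeted gene followed the labels: spliced reads of Son were 283 and 314 counts per 1000000 (CPM) in the controls and 93.5 and 102 CPM after Son siRNA, a log2 fold change of -1.61 (standard error 0.09, edgeR adjusted p = 3.72e-10). Of 10 pluripotency markers, 9 were listed (Sox2 was not), and their summed spliced reads were 4667 and 4579 CPM in the controls and 4595 and 4453 after Son siRNA. Of the 9, Tfcp2l1 rose (log2 fold change 0.23, edgeR adjusted p = 0.0354), Fgf4 fell (-0.39, edgeR adjusted p = 0.0301), and Pou5f1 fell in splicing efficiency, from 0.987 and 0.986 to 0.977 and 0.976. Dnmt3b, the only marker of formative or primed cells tested in spliced reads, had 211.4 and 210.6 CPM in the controls and 187 and 195 after Son siRNA and did not pass (edgeR adjusted p = 0.319). The summed markers of primitive endoderm, mesoderm and trophectoderm, neuroectoderm and fibroblast feeder cells lay between 1.16 and 4.72 CPM in every library, and Col1a1, Col1a2, Col3a1, Cdx2 and Sox17 were not listed. In bulk samples, fewer cells of a type and less RNA per cell cannot be told apart.

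Spliced RNA of a few lysosomal genes was much lower after Son siRNA, while most of the set stayed near its control level. Spliced reads fell in 7 of the 33 genes tested (6.76% of all 9474 genes tested) and rose in 0 (1.96% of all genes). The 7 were Gnptg, Arsa, Nagpa, Ctsa, Man2b1, Tpp1 and Hexa. Splicing efficiency over the whole gene, from reads summed over its introns, fell in 7 of 32 genes (6.98% of all 9370 genes tested) and rose in 0 (0.128% of all genes). These were Arsa, Idua, Nagpa, Gnptg, Ctsa, Man2b1 and Tpp1. The 6 genes in both counts are a sulfatase, a mannosidase, a pair of proteases and a pair of tagging genes. The spliced reads are also part of splicing efficiency, so these counts are not independent of each other. A gene or intron passed when its p-value, adjusted by the method of Benjamini and Hochberg over all features of the table, was under 0.05 in edgeR's quasi-likelihood test.

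Because the list was drawn up with these comparisons known, nothing is read from these counts against the shares of all genes. At an unadjusted p under 0.05, edgeR had 9 genes of the set lower and 2 higher in spliced reads (12.0% and 7.72% of all genes), and 8 lower and 1 higher in splicing efficiency (12.7% and 1.13% of all genes). DESeq2 called 7 lower and 0 higher in spliced reads (5.58% and 1.38% of all genes), and 6 lower and 0 higher in splicing efficiency (5.33% and 0.0427% of all genes). The median log2 fold change of spliced reads was -0.01 over the 33 members and 0.01 over all genes. The median log2 odds ratio of unsplit to split reads, which is above 0 where more reads are unsplit after Son siRNA, was 0.32 over the 32 members and 0.09 over all genes. When split and unsplit reads were each scaled to their own library totals, every such odds ratio moved down by about the same amount: the median over all genes moved by -0.16, to -0.08, and that of the members to 0.15. The genes whose splicing efficiency fell and rose over the whole table then numbered 601 and 118 in place of 654 and 12, and in the lysosomal set 8 and 0 in place of 7 and 0. Both Son siRNA libraries lay below both controls in spliced reads for 11 members and above them for 9 (24.6% and 24.0% of all genes), and the groups overlapped for the other 13. In gene splicing efficiency both lay below for 14 members and above for 2 (27.1% and 11.2% of all genes).

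**Figure D1:**
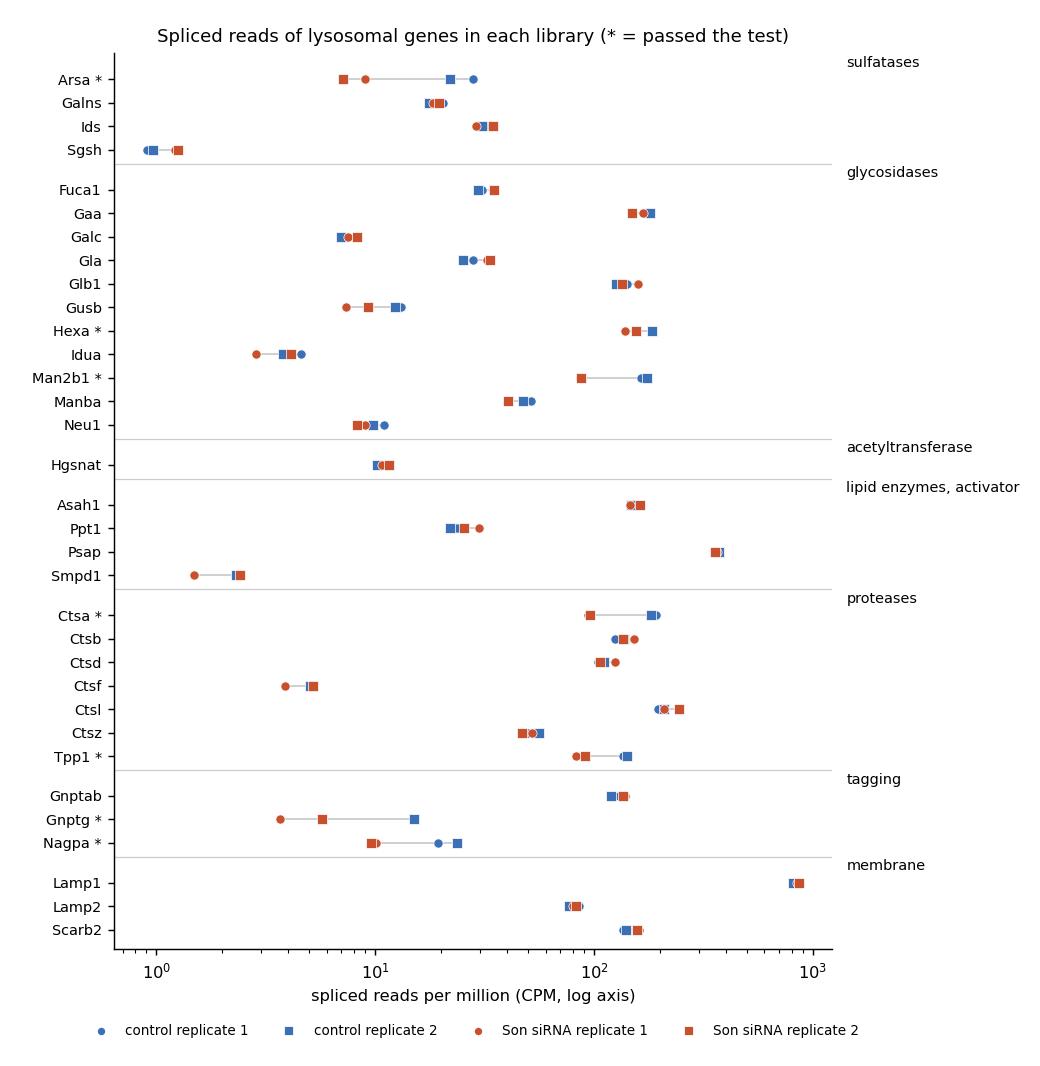
Spliced reads in CPM on a log axis for the 33 lysosomal genes tested, grouped by role, with 1 point per library (blue, control; red, Son siRNA; circles, replicate 1; squares, replicate 2) and a grey line over the range. Red points stand clear to the left of blue ones for Arsa, Man2b1, Ctsa, Tpp1, Gnptg and Nagpa, and for Gusb, which did not pass, and points of the other genes lie closer together or overlap.

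The 3 tagging genes did not move together. Spliced reads of Gnptg were 15.1 and 15.0 CPM in the controls and 3.66 and 5.68 after Son siRNA. Both Son siRNA libraries were far below both controls, at 30.4% of the control level in the fit (log2 fold change -1.72, standard error 0.23, edgeR adjusted p = 2.66e-05). Nagpa had 19.3 and 23.6 spliced CPM in the controls and 10.1 and 9.53 after Son siRNA. The groups did not overlap, and the fit put Nagpa at 46.1% of control (log2 fold change -1.12, standard error 0.18, edgeR adjusted p = 0.000229). Gnptab, which encodes the catalytic subunits of the same phosphotransferase that Gnptg serves, had 130 and 120 CPM in the controls and 138 and 136 after Son siRNA. Its log2 fold change was 0.13 (standard error 0.09, edgeR adjusted p = 0.467). With spliced reads taken from a gene's best covered intron alone, Nagpa no longer passed (log2 fold change -0.96, edgeR adjusted p = 0.0868).

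Splicing efficiency, which includes the same spliced reads, separated the tagging genes in the same way. Over the whole gene, Gnptg stood at 0.820 and 0.789 in the controls and at 0.527 in each Son siRNA library, and Nagpa at 0.921 and 0.937 against 0.817 and 0.717. The log2 odds ratios were 1.90 for Gnptg (standard error 0.39, edgeR adjusted p = 6.82e-05) and 1.96 for Nagpa (standard error 0.39, edgeR adjusted p = 2.49e-05). Gnptab stood at 0.937 and 0.916 in the controls and 0.931 and 0.930 after Son siRNA (log2 odds ratio -0.07, edgeR adjusted p = 0.982). Without control replicate 1, Gnptg kept its direction but did not pass (log2 odds ratio 1.75, edgeR adjusted p = 0.0586), and without control replicate 2 the small value of Gnptab turned to 0.14. The unsplit reads of Gnptg, scaled to each library's junction reads, were 3.05 and 3.68 per 1000000 in the controls and 3.12 and 4.65 after Son siRNA, and those groups overlapped. Those of Nagpa were 1.53 and 1.46 against 2.13 and 3.63, with both Son siRNA libraries higher.

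All 4 tested introns of Gnptg are short, from 67 to 90 nucleotides, and each had both Son siRNA libraries below both controls (24.3% of all introns), although none passed alone (1.71% of all introns fell). Intron 9, on chr17:25453864-25453953, had a splicing efficiency of 0.719 and 0.850 in the controls and 0.40 and 0.423 after Son siRNA (edgeR adjusted p = 0.0705). Intron 6 of Nagpa, 107 nucleotides on chr16:5016488-5016594, had 0.916 and 0.922 in the controls and 0.734 and 0.648 after Son siRNA. It was the only tagging-gene intron to pass (log2 odds ratio 2.31, standard error 0.60, edgeR adjusted p = 0.0167). The 16 tested introns of Gnptab had lengths with a median of 1193 nucleotides. In 1 of them both Son siRNA libraries lay below both controls, and in 2 both lay above.

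The exon sequence on each side is given here and beside the other genes for 13 of the 18 introns that passed, with examples from each of their genes, because it is the sequence that a split read crosses. Each line holds the last 20 bases of the upstream exon joined to the first 20 of the downstream exon, 5′ to 3′ on the gene's strand, with the last 3 upstream bases and the first downstream base in capitals. Letters come from GENCODE M21 transcripts, and positions in the text are those of the tables (build GRCm39).
Nagpa intron 6: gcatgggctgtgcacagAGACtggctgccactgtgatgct
Gnptg intron 9, just outside the threshold: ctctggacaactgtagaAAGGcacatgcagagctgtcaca

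Long reads of the tagging genes were few, and came from 1 library per group, so no test was possible and intervals cover counting error only. Gnptg had 52 control reads and 13 Son siRNA reads, or 16.9 CPM (95% Wilson interval 12.9 to 22.1) against 6.93 (4.05 to 11.9), and the intervals did not overlap. Its 2 annotated coding models differed: ENSMUST00000038973 had 32 control reads and 2 Son siRNA reads, a CPM ratio of 0.103 (exact 95% interval 0.0119 to 0.403), and ENSMUST00000115154 had 20 and 11. The longer model carries 21 extra bases at exon 7, shown in capitals between the same flanking bases. The models also differ at exon 1 (65 against 57 bases) and in the last exon (1392 against 406 bases).
Gnptg ENSMUST00000115154: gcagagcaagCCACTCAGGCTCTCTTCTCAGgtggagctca
Gnptg ENSMUST00000038973: gcagagcaaggtggagctca
Nagpa had 17 control and 6 Son siRNA reads, and Gnptab 25 and 14, or 8.12 CPM (5.50 to 12) against 7.47 (4.45 to 12.5).

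Among the sulfatases, which remove sulfate groups from glycolipids and glycosaminoglycans, Arsa stood apart from the other 3 tested in spliced reads. Arsa encodes arylsulfatase A, the enzyme that degrades sulfatide. Its spliced reads were 27.9 and 22.0 CPM in the controls and 8.95 and 7.12 after Son siRNA, 32.3% of control in the fit (log2 fold change -1.63, standard error 0.19, edgeR adjusted p = 4.45e-06). Its splicing efficiency was 0.921 and 0.880 in the controls and 0.597 and 0.520 after Son siRNA, so both Son siRNA libraries were far below both controls (log2 odds ratio 2.87, standard error 0.36, edgeR adjusted p = 7.65e-13). Unsplit reads of Arsa were 2.19 and 2.75 per 1000000 junction reads in the controls and 5.66 and 5.75 after Son siRNA, so both Son siRNA libraries were higher. Galns, Ids and Sgsh, which act on keratan, dermatan and heparan sulfate, had log2 fold changes of spliced reads of -0.01, 0.01 and 0.40, and none passed. Splicing efficiency was 0.954 and 0.946 against 0.909 and 0.926 for Galns, and 0.981 and 0.983 against 0.964 and 0.973 for Ids. Both Son siRNA libraries thus lay below both controls in each gene (27.1% of all genes). Their log2 odds ratios were 0.78 and 0.83, and neither passed (edgeR adjusted p = 0.390 and 0.391). Sgsh was covered thinly, with 14 and 10 spliced reads in the controls and 18 and 13 after Son siRNA. Its splicing efficiency was not tested.

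All 4 tested introns of Arsa had both Son siRNA libraries below both controls (24.3% of all introns), and 3 passed (1.71% of all introns). Intron 6 (93 nucleotides, chr15:89358338-89358430, minus strand) had 0.939 and 0.886 in the controls and 0.538 and 0.588 after Son siRNA. Its log2 odds ratio was 3.10 (standard error 0.53, edgeR adjusted p = 2.21e-05). Intron 5 (187 nucleotides, chr15:89358556-89358742) had 0.951 and 0.905 against 0.664 and 0.545, and intron 7 (235 nucleotides, chr15:89357975-89358209) had 0.841 and 0.896 against 0.509 and 0.463. All 3 lie within the coding sequence. The unsplit reads of introns 5 and 7 were mostly at the 3′ junction: splicing efficiency at the 3′ junction of intron 5 went from 0.917 to 0.483, while that at its 5′ junction went from 0.955 to 0.883. At intron 6 the 5′ junction had the larger difference, from 0.912 to 0.485, against 0.929 to 0.643 at the 3′ junction.
Arsa intron 5: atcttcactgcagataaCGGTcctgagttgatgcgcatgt
Arsa intron 6: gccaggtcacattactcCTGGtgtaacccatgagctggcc
Arsa intron 7: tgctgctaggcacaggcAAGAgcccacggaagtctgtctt

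Among the glycosidases, which cut sugars from glycoproteins, glycolipids and glycogen, Man2b1 fell most and 9 of the 11 tested did not pass in spliced reads. Man2b1 encodes lysosomal alpha-mannosidase. Its spliced reads were 164 and 175 CPM in the controls and 85.7 and 86.8 after Son siRNA, 50.9% of control (log2 fold change -0.97, standard error 0.09, edgeR adjusted p = 2.71e-07). Its gene splicing efficiency was 0.825 and 0.788 against 0.653 and 0.575, with no overlap (log2 odds ratio 1.39, standard error 0.23, edgeR adjusted p = 1.67e-07). Unsplit reads of Man2b1 were 32.0 and 43.2 per 1000000 junction reads in the controls and 42.6 and 59.0 after Son siRNA, and those ranges overlapped.

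Man2b1 had the most introns that passed, 6 of 13 tested (1.71% of all introns), and both Son siRNA libraries lay below both controls in 12 (24.3% of all introns). The largest difference was at intron 19 (104 nucleotides, chr8:85822256-85822359, plus strand), with 0.715 and 0.659 in the controls and 0.357 and 0.270 after Son siRNA (log2 odds ratio 2.28, edgeR adjusted p = 0.000268). Intron 8 (83 nucleotides, chr8:85817630-85817712) had 0.661 and 0.703 against 0.423 and 0.273. Intron 22 (90 nucleotides, chr8:85823491-85823580) had 0.878 and 0.888 against 0.696 and 0.540. These 3 introns had the widest gaps between the groups among the 6. Intron 12 (119 nucleotides, chr8:85818575-85818693) had 0.931 and 0.900 against 0.784 and 0.810, and intron 21 (207 nucleotides, chr8:85823128-85823334) had 0.909 and 0.908 against 0.779 and 0.782. Intron 6 (1236 nucleotides, chr8:85813947-85815182), the longest of all the lysosomal introns that passed, had 0.826 and 0.728 against 0.635 and 0.496. In all 6 the controls and the Son siRNA libraries were fully separated, and the edgeR adjusted p of the last 3 lay between 0.0166 and 0.0211.
Man2b1 intron 8: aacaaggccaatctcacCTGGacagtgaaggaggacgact
Man2b1 intron 19: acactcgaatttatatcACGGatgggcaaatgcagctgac
Man2b1 intron 22: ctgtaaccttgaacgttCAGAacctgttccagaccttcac
Man2b1 intron 6: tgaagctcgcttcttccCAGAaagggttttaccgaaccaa

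The long reads of Man2b1 differed by transcript model more than in total. The gene had 160 control reads and 85 Son siRNA reads, or 51.9 CPM (44.5 to 60.6) against 45.3 (36.7 to 56.1), and those intervals overlapped. The coding model ENSMUST00000034121 had 75 and 13 reads, 24.3 CPM (19.4 to 30.5) against 6.93 (4.05 to 11.9). The model ENSMUST00000211379, annotated as retaining an intron, had 68 and 64 reads, 22.1 CPM (17.4 to 28) against 34.1 (26.7 to 43.6). Models annotated as retaining an intron took 83 of the 160 control reads, 51.9% (44.2% to 59.5%), and 72 of the 85 Son siRNA reads, 84.7% (75.6% to 90.8%). In the control library such models thus already held about as many Man2b1 reads as the others, and in the Son siRNA library they held most.

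Hexa and Idua each passed in only 1 of the gene measures. Hexa encodes the alpha subunit of hexosaminidase, which degrades GM2 ganglioside. Its spliced reads were 183.5 and 183.8 CPM in the controls and 139 and 155 after Son siRNA, 80.0% of control (log2 fold change -0.32, standard error 0.09, edgeR adjusted p = 0.0182). Its splicing efficiency was 0.927 and 0.917 against 0.902 and 0.904, which did not pass (log2 odds ratio 0.34, edgeR adjusted p = 0.654). The call for Hexa was lost without control replicate 1 (edgeR adjusted p = 0.255), without control replicate 2 (0.266) and with the best covered intron alone (0.381).

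Idua encodes alpha-L-iduronidase, which acts on dermatan and heparan sulfate. Its splicing efficiency was 0.863 and 0.852 in the controls and 0.560 and 0.621 after Son siRNA (log2 odds ratio 2.06, standard error 0.59, edgeR adjusted p = 0.0103). It was covered thinly, with 4.59 and 3.77 spliced CPM in the controls and 2.85 and 4.14 after Son siRNA, and those ranges overlapped. The splicing efficiency call was lost without control replicate 1 (edgeR adjusted p = 0.251), without control replicate 2 (0.0853), without Son siRNA replicate 1 (0.0617) and in DESeq2 (0.107), with log2 odds ratios from 1.88 to 2.12. Its log2 fold change of spliced reads was -0.30 from 5′ junctions (edgeR adjusted p = 0.652), -1.21 from 3′ junctions (edgeR adjusted p = 0.0290) and 0.13 from the best covered intron. Intron 5 of Idua (299 nucleotides, chr5:108827678-108827976) had the largest difference of all tested lysosomal introns, 0.80 and 0.545 in the controls against 0.171 and 0.231, and was just outside the threshold (edgeR adjusted p = 0.0596).

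The other glycosidases tested were Gaa, Gla, Glb1, Galc, Gusb, Manba, Neu1 and Fuca1, and their log2 fold changes of spliced reads ran from -0.63 to 0.31. Gusb, beta-glucuronidase, was the lowest of them, at 13.1 and 12.3 CPM in the controls and 7.32 and 9.24 after Son siRNA (edgeR adjusted p = 0.0584). Gla, alpha-galactosidase A, was the highest, at 28 and 25.0 against 32.5 and 33.3 (edgeR adjusted p = 0.209). Neither gene's groups overlapped, and neither passed. Gaa, acid alpha-glucosidase, had both Son siRNA libraries below both controls in 7 of its 13 tested introns (24.3% of all introns) and a gene log2 odds ratio of 0.62 (edgeR adjusted p = 0.100). Hgsnat, the membrane acetyltransferase of heparan sulfate breakdown, had 11.3 and 10.1 spliced CPM in the controls and 10.8 and 11.6 after Son siRNA. Its gene log2 odds ratio was 0.73 and did not pass. That of Gusb was 1.42 (edgeR adjusted p = 0.518), from few unsplit reads, 3 and 3 in the controls and 8 and 2 after Son siRNA.

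Of the 7 proteases, Ctsa and Tpp1 fell in spliced reads and in splicing efficiency, and neither of these measures passed for Ctsb, Ctsd, Ctsf, Ctsl or Ctsz. Ctsa encodes cathepsin A, also called protective protein, a serine carboxypeptidase that forms a complex with beta-galactosidase (Glb1) and neuraminidase (Neu1). Spliced reads of Ctsa were 192 and 183 CPM in the controls and 93.7 and 95.9 after Son siRNA, 50.6% of control (log2 fold change -0.98, standard error 0.09, edgeR adjusted p = 1.79e-07). Its partners were not called: Glb1 had 141 and 126 against 159 and 133 CPM, and Neu1 10.9 and 9.76 against 9.01 and 8.28. Tpp1 encodes tripeptidyl peptidase, which trims peptides from their amino end. It had 136 and 141 CPM in the controls and 82.7 and 90.7 after Son siRNA, 62.6% of control (log2 fold change -0.68, standard error 0.09, edgeR adjusted p = 3.52e-05).

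Gene splicing efficiency of Ctsa was 0.898 and 0.871 in the controls and 0.733 and 0.734 after Son siRNA, and that of Tpp1 0.909 and 0.898 against 0.799 and 0.796. Within each group the libraries were close, and the groups were far apart. The log2 odds ratios were 1.49 for Ctsa (standard error 0.23, edgeR adjusted p = 2.35e-08) and 1.25 for Tpp1 (standard error 0.24, edgeR adjusted p = 6.74e-06). Unsplit reads of Ctsa were 20 and 24.8 per 1000000 junction reads in the controls and 31.8 and 32.0 after Son siRNA, and those of Tpp1 were 15.3 and 18.1 against 23.5 and 25.3. Both genes thus had more unsplit reads in each Son siRNA library than in either control. The cathepsins that did not pass had log2 fold changes of spliced reads from -0.18 (Ctsf) to 0.17 (Ctsl), and log2 odds ratios from -0.25 (Ctsb) to 0.45 (Ctsz).

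**Figure D2:**
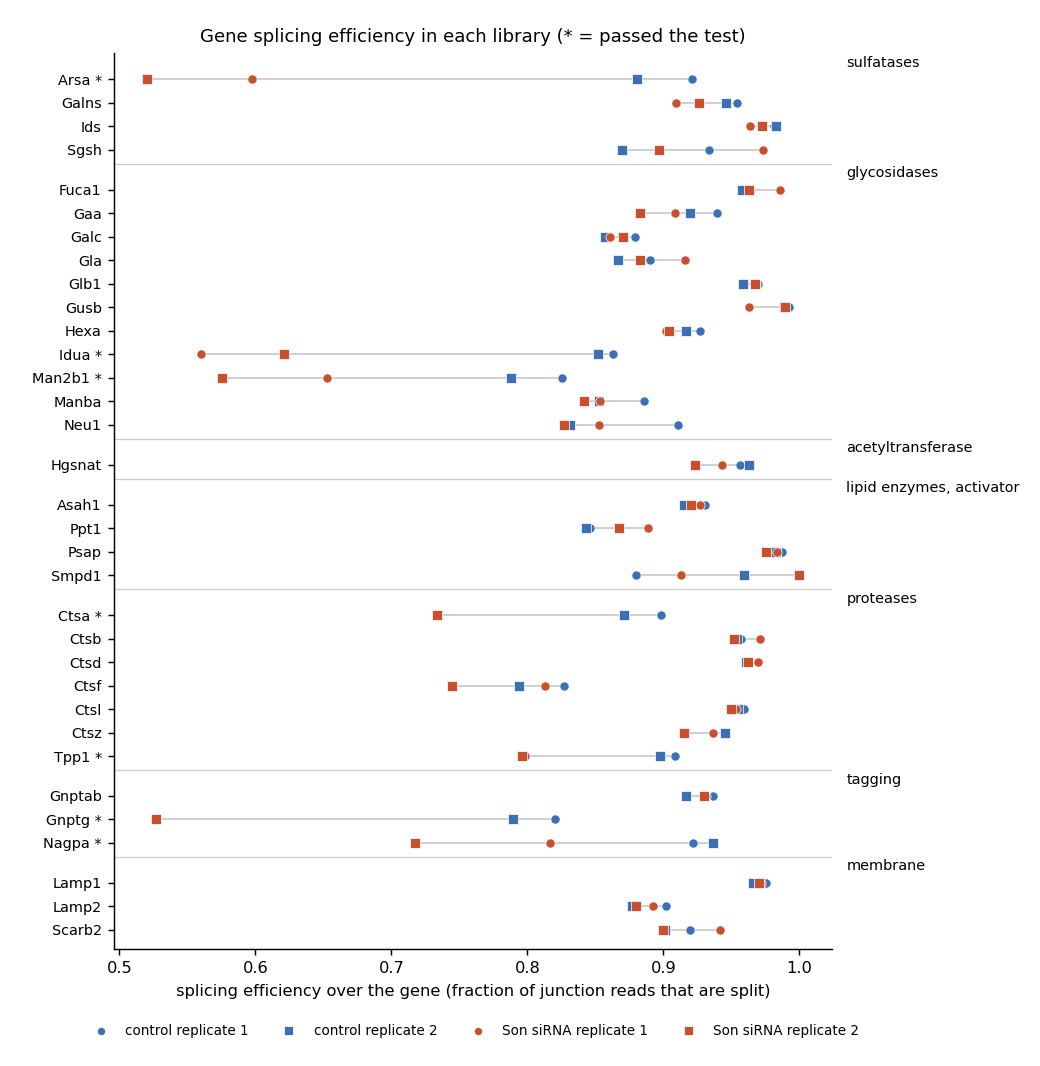
Splicing efficiency over each gene (the split share of junction reads, both junctions) in each library for the lysosomal genes with an intron in all 4 tables, with symbols as in the plot of spliced reads. Red points lie well to the left of blue ones for Arsa, Idua, Man2b1, Ctsa, Tpp1, Gnptg and Nagpa, and lie among or next to them for most other genes.

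All 8 tested introns of Ctsa had both Son siRNA libraries below both controls (24.3% of all introns), and 5 passed (1.71% of all introns). Intron 8 (705 nucleotides, chr2:164677642-164678346, plus strand) had 0.912 and 0.882 in the controls and 0.673 and 0.758 after Son siRNA (log2 odds ratio 1.82, edgeR adjusted p = 0.00149). Intron 14 (114 nucleotides, chr2:164680651-164680764) had 0.792 and 0.759 against 0.607 and 0.494. Both had lower adjusted p-values than the other introns of Ctsa. Intron 6 (231 nucleotides, chr2:164676845-164677075) had 0.883 and 0.802 against 0.638 and 0.680. Intron 13 (488 nucleotides, chr2:164680073-164680560) had 0.931 and 0.907 against 0.732 and 0.769. Intron 10 (104 nucleotides, chr2:164678998-164679101) had the smallest difference of all the lysosomal introns that passed, 0.958 and 0.953 against 0.884 and 0.896. Intron 11 of Ctsa (99 nucleotides, chr2:164679178-164679276) was just outside the threshold, with 0.988 and 0.984 against 0.952 and 0.957 (edgeR adjusted p = 0.0678).
Ctsa intron 8: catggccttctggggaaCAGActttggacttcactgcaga
Ctsa intron 14: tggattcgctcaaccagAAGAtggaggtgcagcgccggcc
Ctsa intron 10: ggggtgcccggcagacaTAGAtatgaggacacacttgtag

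Tpp1 had 3 of 8 tested introns pass (1.71% of all introns), and both Son siRNA libraries lay below both controls in 7 (24.3% of all introns). Intron 4 (192 nucleotides, chr7:105399195-105399386, minus strand) had 0.961 and 0.947 in the controls and 0.771 and 0.849 after Son siRNA (log2 odds ratio 2.29, edgeR adjusted p = 8.64e-05). Intron 6 (113 nucleotides, chr7:105398631-105398743) had 0.731 and 0.761 against 0.441 and 0.336 (log2 odds ratio 2.19, edgeR adjusted p = 0.00174). The third is intron 2 of ENSMUST00000211226, a noncoding model (230 nucleotides, chr7:105400937-105401166), with 0.904 and 0.915 against 0.779 and 0.775. Its 5′ junction was split in only 0.0424 of control reads and 0.0190 after Son siRNA, while its 3′ junction was split in 0.972 and 0.906. Most of its split reads are therefore those of another intron that ends at the same 3′ site, and it counts as uncertain.
Tpp1 intron 4: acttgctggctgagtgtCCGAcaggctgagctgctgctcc
Tpp1 intron 6: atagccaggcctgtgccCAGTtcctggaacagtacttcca

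**Figure D3:**
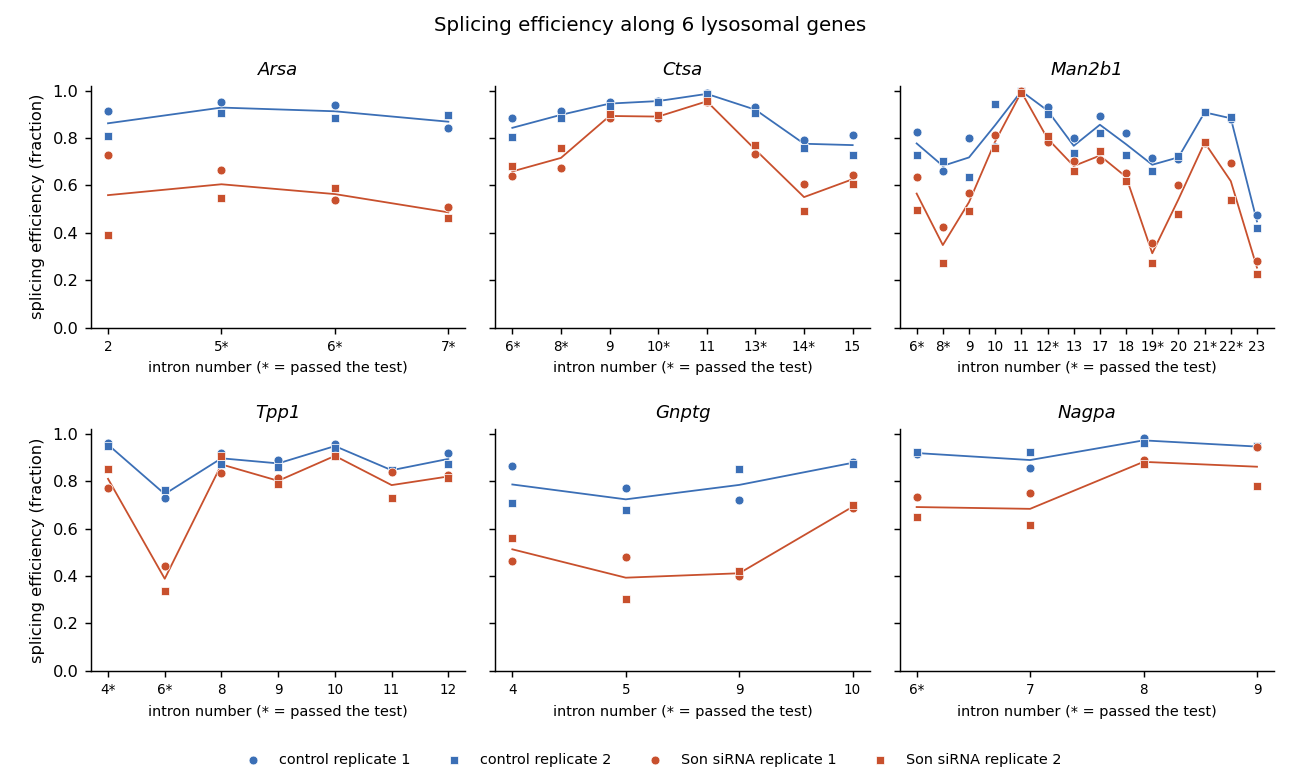
Splicing efficiency (fraction of junction reads that are split) of each intron listed in all 4 tables, in transcript order, for 6 lysosomal genes, each on the 1 transcript model that holds most of its listed introns. Points are libraries, lines join the group means, and an asterisk marks an intron that passed the test. The red line lies below the blue one at every intron shown, and the lines come closest at Man2b1 intron 11, where the means are 0.997 and 0.994.

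Long reads of the 2 proteases that fell were also fewer. Tpp1 had 223 control reads and 61 Son siRNA reads, or 72.4 CPM (63.5 to 82.5) against 32.5 (25.3 to 41.8). Ctsa had 154 and 48, or 50.0 CPM (42.7 to 58.5) against 25.6 (19.3 to 33.9). Models annotated as retaining an intron took 10.3% (7.0% to 15.0%) of the control reads of Tpp1 and 26.2% (16.8% to 38.4%) of its Son siRNA reads. For Ctsa the shares were 5.19% (2.66% to 9.92%) and 14.6% (7.25% to 27.2%), with overlapping intervals. Ctsf, cathepsin F, had 17 and 24 reads, and of these 1 and 16 were on models annotated as retaining an intron, although its short-read splicing efficiency was 0.827 and 0.794 in the controls and 0.813 and 0.745 after Son siRNA. The 16 reads of Ctsf were spread over 7 models with at most 5 reads each, and Ctsf was singled out after its values were seen. Shares of such models, control then Son siRNA, went both ways in other genes of the set. They fell for Lamp2 (12.2% and 2.56%), Scarb2 (6.06% and 0%), Asah1 (7.83% and 5.88%) and Manba (4.81% and 2.22%). They rose for Arsa (18.75% and 27.3%), Gusb (6.25% and 25.0%) and Nagpa (0% and 16.7%). Neu1 had 37.9% and 38.9%. Intervals overlapped in each of these genes. The share over all genes was not computed.

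The enzymes of lipid and thioester breakdown and their activator were near their control level. None of Smpd1 (acid sphingomyelinase), Asah1 (acid ceramidase), Psap (prosaposin, the precursor of the saposin activators) and Ppt1 (palmitoyl-protein thioesterase) passed in either gene measure. Psap had 361 and 372 spliced CPM in the controls and 363 and 356 after Son siRNA, and Asah1 156 and 147 against 146 and 161, so the groups overlapped in both genes. In Ppt1, all 4 tested introns had both Son siRNA libraries above both controls (13.1% of all introns), but none passed and neither did the gene, with a splicing efficiency of 0.846 and 0.843 against 0.888 and 0.867 (log2 odds ratio -0.42, edgeR adjusted p = 0.745).

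The 3 membrane protein genes also kept their spliced reads. Lamp1 and Lamp2 encode the heavily glycosylated proteins that line the inside of the lysosomal membrane, and Scarb2 encodes the receptor that carries glucocerebrosidase without the mannose 6-phosphate mark. Lamp1, the most abundant gene of the set in spliced reads, had 813 and 808 CPM in the controls and 848 and 866 after Son siRNA. Lamp2 had 85.3 and 76.6 against 80.1 and 82.4, and Scarb2 135 and 140 against 160 and 157. Their log2 fold changes were 0.08, 0.00 and 0.21, with edgeR adjusted p-values of 0.555, 0.995 and 0.162. Intron 8 of Lamp2 (2415 nucleotides, chrX:37510729-37513143) had 0.599 and 0.450 in the controls and 0.253 and 0.25 after Son siRNA and did not pass (edgeR adjusted p = 0.15). It is named after its values were seen, as the largest difference among the introns longer than 1000 nucleotides in the set.

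Over all the lysosomal introns, splicing efficiency fell in 18 of the 202 tested (1.71% of all 63309 introns) and rose in 0 (0.0442% of all introns). At an unadjusted p under 0.05, 46 were lower and 4 higher, against 8.11% and 1.61% of all introns. Both Son siRNA libraries lay below both controls in 80 of the 202 introns and above them in 19, against 24.3% and 13.1% of all introns. The 18 introns belong to 5 genes: Man2b1 (6), Ctsa (5), Arsa (3), Tpp1 (3) and Nagpa (1). Introns of a gene share its RNA and are not replicates of each other. The median splicing efficiency of the 18 was 0.903 in the controls and 0.638 after Son siRNA, and each was lower at its 5′ and at its 3′ junction.

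These intron calls rest on all 4 libraries. Without control replicate 1 none of the 18 passed, and 1 other lysosomal intron, in Ctsd, passed in the opposite direction. Without control replicate 2, 6 of the 18 passed, without Son siRNA replicate 1, 14 of the 18, and without Son siRNA replicate 2, 11. The direction of all 18 was the same in each of these fits and in DESeq2, where 6 passed and 0 passed in the opposite direction.

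The genes were listed with splicing results known, so the shares by intron length describe the set and are not independent of that choice. The introns that passed, which lie in 5 genes, were mostly short. Their lengths ran from 83 to 1236 nucleotides with a median of 153, and 15 of 18 had at most 250 nucleotides, against a median of 905 for the 184 lysosomal introns that did not pass and 1128 for all tested introns. Up to 150 nucleotides, 9 of 34 lysosomal introns passed (7.86% of all introns of that length). From 150 to 300 nucleotides it was 6 of 27 (4.37% of all), from 300 to 1000 nucleotides 2 of 53 (1.01% of all), and above 1000 nucleotides 1 of 88 (0.221% of all). The median change in splicing efficiency was -0.134 in the shortest class of lysosomal introns and 0.000102 in the longest, against -0.0177 and -0.00151 over all introns of those lengths. In the 5 genes with an intron that passed, 26 of 37 tested introns had at most 250 nucleotides, against 33 of 165 in the other lysosomal genes. The share of G and C was taken in the 100 bases of exon on each side. Its median was 54.9% for the 18 introns and 54.0% for introns of the same 5 genes that did not pass. Over all the lysosomal introns that did not pass it was 51.4%.

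**Figure D4:**
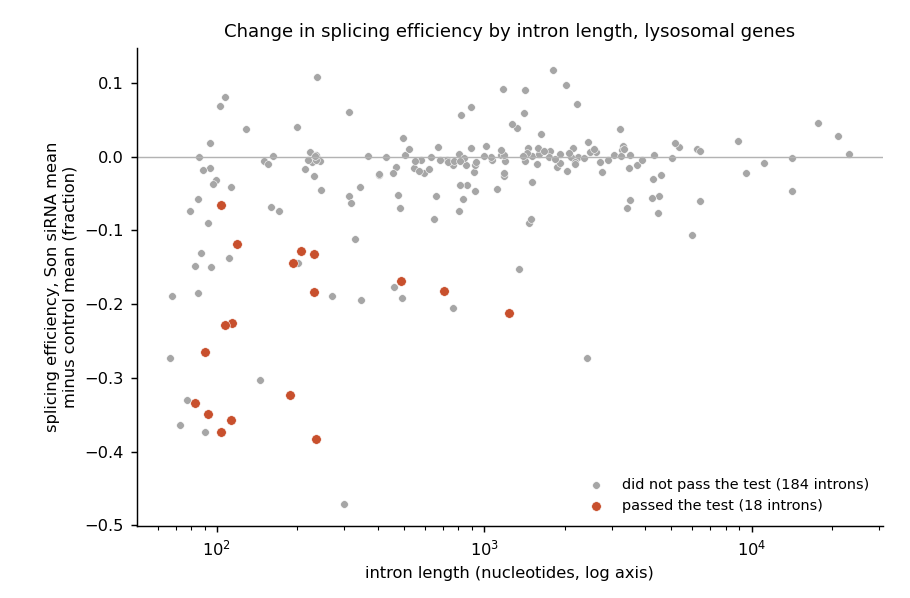
Difference in splicing efficiency (Son siRNA mean minus control mean, as a fraction) against intron length on a log axis for the 202 tested introns of lysosomal genes. Red points are the 18 introns that passed, all below 0 and 15 of them at 250 nucleotides or less, and grey points are the 184 that did not.

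The bases at the exon ends joined by these introns varied. The upstream exon ended in AG at 11 of the 18 introns, 61.1%, against 57.6% of all tested introns with a matched transcript. The downstream exon began with G at 5 of 18, 27.8%, against 49.3% of all. With 18 introns in 5 genes these shares are a description only. The letters inside the introns were not used here, since they need a genome of the tables' build.

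In the long reads, 127 transcripts of the lysosomal genes had a read, and 41 of them reached the minimum of 20 reads over both libraries. The libraries held 3080426 control and 1874851 Son siRNA reads. Of the 41 transcripts, 4 were at least 2-fold lower in the Son siRNA library and 0 at least 2-fold higher, against 5.80% and 3.32% of all transcripts at that minimum. They were the main coding models of Gnptg, Man2b1, Tpp1 and Ctsa, all of which also fell in the short reads. The labels name a Son siRNA total RNA sample as the starting material of both long-read libraries. By the labels alone, what the control library was made from is uncertain. The long reads are thus not an independent repeat of the short reads. Long reads of Son itself were 217 of 3080426 (control) and 37 of 1874851 (Son siRNA), lower after Son siRNA as in the short reads. The origin of the control library was not tested further.

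Among transcripts with at least 50 long reads, the lowest were Man2b1 ENSMUST00000034121 at a log2 ratio of -1.77, Tpp1 ENSMUST00000033184 at -1.42 (199 and 45 reads) and Ctsa ENSMUST00000103092 at -1.20 (122 and 32 reads). Next came Lamp2 ENSMUST00000061755 at -0.56 (42 and 17 reads) and Manba ENSMUST00000029814 at -0.51 (92 and 39 reads). The highest were Hyal2 ENSMUST00000010191 at 0.89 (38 and 43 reads), Lamp1 ENSMUST00000033824 at 0.73 (161 and 163 reads) and Man2b1 ENSMUST00000211379 at 0.63. Ctsd ENSMUST00000066401 was at 0.56 (29 and 26 reads) and Ppt1 ENSMUST00000030412 at 0.41 (67 and 54 reads). Hyal2, a hyaluronidase with no listed intron in the short reads, had 116 and 88 reads over the gene, 37.7 CPM (31.4 to 45.2) against 46.9 (38.1 to 57.8). Arsb had 3 and 2 reads, too few for a ratio.

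Summed over each gene, 3 of the 28 genes at the minimum were at least 2-fold lower (Gnptg, Tpp1 and Hgsnat) and 1 at least 2-fold higher (Ctsf), against 4.16% and 2.20% of all genes. For Ctsf, models annotated as retaining an intron held 1 of 17 control reads and 16 of 24 Son siRNA reads. Its main coding model, ENSMUST00000119694, had 14 and 6 reads. Hgsnat had 18 and 4 reads, 5.84 CPM (3.70 to 9.24) against 2.13 (0.83 to 5.49), and its short reads were not called. Arsa had 32 and 11 reads, 10.4 CPM (7.36 to 14.7) against 5.87 (3.28 to 10.5), and Lamp1 had 165 in each library, 53.6 CPM (46.0 to 62.4) against 88.0 (75.6 to 102). The 3 genes with the most long reads, Ctsl, Ctsd and Ctsb, were each higher in CPM in the Son siRNA library, with intervals that were apart for Ctsd, at 249 (232 to 267) against 330 (305 to 357), and overlapped for Ctsl and Ctsb.

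**Figure D5:**
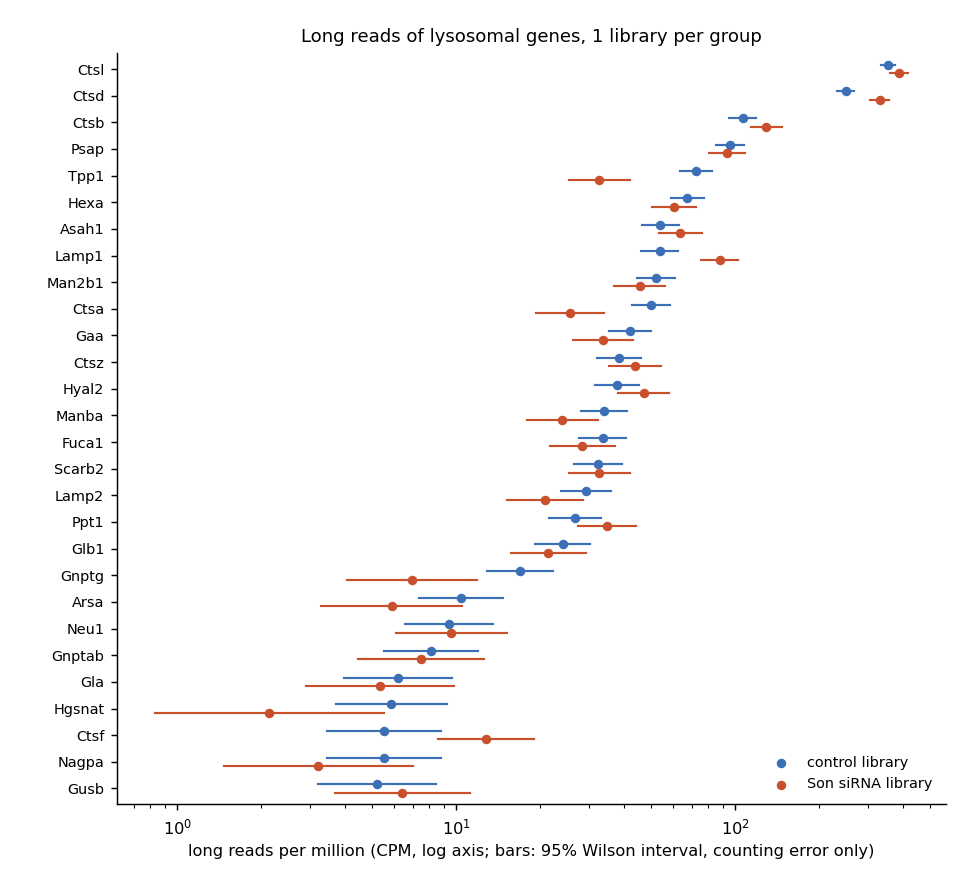
Long reads in CPM on a log axis for the 28 lysosomal genes with at least 20 reads over both libraries, ordered by the control value. Blue is the control library and red the Son siRNA library, 1 library each, and bars are 95% Wilson intervals that cover counting error only. Intervals are fully apart and lower in red for Tpp1, Ctsa and Gnptg, and higher in red for Ctsd and Lamp1.

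Promoters of the set were searched for the core of the TFEB element, because many lysosomal genes are known targets of that factor. RefSeq promoters (build GRCm38.p6, 250 bases before to 50 after the start) were matched for 33 of the 37 genes, all but Hgsnat, Ctsb, Galns and Asah1. The letters CACGTG, which read the same on both strands, were in 13 of 33, against 8.09% of 27025 genes. The longer form GTCACGTG, on either strand (CACGTGAC), was in 10 of 33, against 2.55% of genes, and every match to it is also a match to CACGTG. It was in 4 of the 7 genes whose spliced reads fell (Arsa, Ctsa, Gnptg and Nagpa). Of the other 26 matched genes it was in 6, among them Lamp1, Glb1 and Ctsd. These 26 include Arsb, Hyal2, Naglu and Lipa, which were not tested in spliced reads, and Naglu is among the 6. Both forms were present in genes that fell and in tested genes that did not pass. Whether the element bears on the fall was not tested. The windows below, with the match in capitals, run 5′ to 3′ on the gene's strand.
Arsa (promoter at chr15:89477375-89477674, minus strand): ttcaactcagtGTCACGTGttgtctgctcc
Ctsa (promoter at chr2:164833523-164833822, plus strand): atgagcaaactGTCACGTGatgcagatgct
Nagpa (promoter at chr16:5203963-5204262, minus strand): tggggcgagccCACGTGACcggagcaccaa
Glb1 (promoter at chr9:114400828-114401127, plus strand): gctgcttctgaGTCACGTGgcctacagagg
Lamp1 (promoter at chr8:13158911-13159210, plus strand): atgccgactggCACGTGACcacatcacgtg
Spliced reads of Tfeb itself were 46.0 and 47.8 CPM in the controls and 52.4 and 47.4 after Son siRNA, and those of its relative Tfe3 12.2 and 11.1 against 11.1 and 13.1, neither of which passed.

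Other genes of the lysosome and its supply route were taken from lists outside the 37. None of 15 tested subunits and accessory proteins of the proton pump, which acidifies the lumen, changed in spliced reads (edgeR had 1 lower at an unadjusted p under 0.05, and DESeq2 called 0). Over all genes, 6.76% fell and 1.96% rose in spliced reads. Splicing efficiency fell in 1 gene of the pump (6.98% of all genes), Atp6v0b, from 0.922 and 0.921 to 0.848 and 0.776. Among 17 other hydrolases tested, 0 rose in spliced reads, and those that fell included Pgghg (log2 fold change -1.90) and Dnase2a (-0.58). Splicing efficiency fell in 2 of 16 (6.98% of all genes), Pgghg and Dnase2a. In DESeq2, Dnase2a did not pass in spliced reads (adjusted p = 0.0742) or in splicing efficiency (adjusted p = 0.0735). Pgghg, a glucosidase that acts on the disaccharide of collagen, had 19.1 and 17.3 spliced CPM in the controls and 5.02 and 4.72 after Son siRNA.

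Of 16 sorting receptors and coat proteins tested, 3 fell and 0 rose (6.76% and 1.96% of all genes), all of them parts of the vesicle coats: Gga1 (log2 fold change -0.54), Ap3d1 (-0.51) and Ap1m1 (-0.44), and all 3 also fell in splicing efficiency (6.98% of all genes), of which Gga1 did not pass in DESeq2 (adjusted p = 0.081). The mannose 6-phosphate receptor genes M6pr and Igf2r had log2 fold changes of 0.05 and 0.14 and did not pass. Beside the next lists stand the shares of all genes that fell, 6.76% in spliced reads and 6.98% in splicing efficiency. Of 13 transporters and channels, Clcn7, a chloride-proton exchanger of the lysosomal membrane, fell in both measures (log2 fold change -0.42). Of 9 transcription regulators, Usf2, whose protein binds CACGTG, fell in both (log2 fold change -0.65, from 48.8 and 41.7 CPM to 30.4 and 27.2), although its splicing efficiency did not pass in DESeq2 (adjusted p = 0.123). No gene of these 5 lists rose in either measure, in edgeR or in DESeq2, and at an unadjusted p under 0.05 edgeR had between 0 and 2 genes per list higher in spliced reads and 0 in splicing efficiency.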

How the data were processed

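Junction counts were deposited by the authors as tables from SPLICE-q, per the labels, with split and unsplit reads per intron at the 5′ and 3′ junctions and a splicing efficiency as a fraction of 0 to 1. The deposited fraction equals split over all reads at both junctions, and the deposited tables list only junctions with at least 10 reads. Long reads were deposited by the authors as counts per transcript. The submitters' processing notes name GRCm39, minimap2 and SAMtools without saying which data each was used for, and versions are not given in the sources used here.

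The 37 genes, the role lists and the other lists were chosen with earlier results of these data known. Rows repeated for several transcripts of a gene were merged to unique introns. Introns present in all 4 tables whose summed reads reached 10 split and 10 unsplit were tested in edgeR 4.0.16 (R 4.3.3) with a quasi-likelihood model of library, read kind (split or unsplit) and the interaction of read kind with Son siRNA. Gene splicing efficiency used reads summed over introns listed under 1 gene only. Spliced reads were split reads at 5′ junctions summed per gene, scaled by TMM and filtered with filterByExpr, and their CPM values carry that scaling. Since a read through several junctions counts at each, genes with more introns count more, and levels were not compared between genes as molar amounts. Adjusted p-values are over the whole table. DESeq2 1.42.0 and limma 3.58.1 were alternatives. Long reads were scaled to counts per 1000000 reads of the library (CPM), and log2 ratios used a pseudocount of 0.5 reads, a minimum of 20 reads and a threshold of 2-fold, with Wilson intervals at 95%. A transcript with at most 3 reads in the Son siRNA library has its CPM ratio given with an exact interval.

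Values per library are given for every intron that passed, every gene that passed in a gene measure, the 3 tagging genes, the 5 highest and 5 lowest transcripts with at least 50 long reads, and the 3 introns just outside the threshold. GENCODE M21, matched by identifier, gave gene names, transcript types and exon sequences (98.6% of long-read transcripts had a symbol), whose build is GRCm38, so none of its coordinates are given. Intron numbers follow the M21 model named, or the coding model that holds most of a gene's listed introns. Intron length bins, exon bases and promoter letters were examined after the values were seen. Simulated counts covered 63309 introns. Of introns with a change in unsplit reads, 48 of 100 were recovered at 4-fold and 0 of 100 at 2-fold. The intron test thus missed 2-fold changes and many 4-fold changes in the simulated counts. Over 9467 genes, the counts were of spliced reads. There, 100 of 100 changes to 0.5-fold and 100 of 100 to 0.25-fold were recovered. Both simulations assumed a fixed dispersion, not one estimated from the libraries, so recovery depends on that setting. Changes were placed only in well covered introns and in genes with a mean of at least 100 reads. Recovery for thinly covered genes such as Idua and Sgsh was therefore not tested. Recovery of changes in gene splicing efficiency was not tested. A result for a gene of the list of other hydrolases is not reported here.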

Additional observations from a re-analysis of the deposited data

How the results depend on the processing

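The count of lysosomal introns that passed, 18, was 18 with split and unsplit reads scaled separately, 19 with at least 50 junction reads in every library and 18 with no minimum. It was 6 in DESeq2, 4 from the 5′ junction alone, 9 from the 3′ junction alone and 0 in limma on the log2 odds, where 37 were lower and 4 higher at an unadjusted p under 0.05. Leaving out 1 library gave 1 to 18, with the lowest value without control replicate 1, where the single call was an intron of Ctsd in the opposite direction. The count of genes called in splicing efficiency, 7 and all lower, was 5 to 8 without 1 library (7 lower and 1 higher without Son siRNA replicate 2), 8 with separate scaling and 6 in DESeq2. The count of genes called in spliced reads, 7 and all lower, was 6 to 11 without 1 library. It was 9 without Son siRNA replicate 1 (8 lower and 1 higher) and 11 without Son siRNA replicate 2 (8 lower and 3 higher). It was 7 in DESeq2, 8 with no filter, 5 with the best covered intron and 9 from 3′ junctions. The 4 long-read transcripts past 2-fold were 4 with a pseudocount of 5 reads and without the 100 most abundant transcripts, 3 with at least 50 reads, and 46 with at least 1 read.

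Values that turned sign were the log2 odds ratio of Gnptab, -0.29 to 0.14 without 1 library and 0.14 without control replicate 2, and the log2 fold change of Idua, 0.13 with the best covered intron. The causes of these changes were not tested. The replicate numbers were not shown to pair the samples: deviations from the group means of equal numbers correlated at 0.00846 over introns and 0.0174 over genes. Such a correlation leaves out any shift shared by all features of a library. Both replicate 2 libraries were shallower. Split reads at 5′ junctions were 16012286 and 10640247 in control replicates 1 and 2, and 14978479 and 10556187 in Son siRNA replicates 1 and 2. Unsplit reads there were 920028 and 696201, and 971880 and 780552. Whether equal numbers mark a shared batch was not tested. With a replicate block, 24 introns passed, 8 genes in splicing efficiency and 8 in spliced reads. Over the whole table the counts changed by more than 1.5 times between fits: 1112 introns in all became 171 without control replicate 1, 452 without control replicate 2, 678 without Son siRNA replicate 2, 285 in DESeq2, 232 and 322 from the 5′ and 3′ junctions alone and 0 in limma. For genes in splicing efficiency, 666 became 180, 398 and 413 without control replicate 1, control replicate 2 and Son siRNA replicate 2, and 1018 with the block. For genes in spliced reads, 826 became 381 and 394 without control replicate 1 and 2, 2193 without Son siRNA replicate 1 and 290 with the best covered intron. With 2 libraries per group, how far depth limits the thinly covered genes was not tested.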
